A study of Homo sapiens with 2 samples.

Results

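The genes described here encode death receptors, the ligand TRAIL and the inhibitor FLIP. They are 9 genes, namely TNFSF10, TNFRSF10A, TNFRSF10B, TNFRSF10D, FAS, TNFRSF1A, TNFRSF21, FADD and CFLAR. They were chosen by name, and every probe set that the platform annotation assigns to one of them was kept. A probe set is the group of array oligonucleotides that reports 1 transcript region. The 9 genes, of 19775 named genes, had 35 probe sets of 54675 in all.

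Transcripts were measured in AGS cells, an epithelial line from a human gastric adenocarcinoma. The groups were 1 array of RNA labelled control and 1 array of RNA from cells in which galectin-3 was silenced with a synthetic double-stranded siRNA. The sources used here give neither the treatment of the control cells nor a time after transfection. The comparison asks which transcripts differ when galectin-3, a lectin that binds beta-galactosides, is depleted. With 1 array per group there is no test and no p-value for any difference, and values below describe these 2 arrays.

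Death receptors are cell surface proteins of the TNF receptor superfamily that carry a death domain in their cytoplasmic tail. On binding its ligand, a receptor such as FAS or a TRAIL receptor recruits the adaptor FADD, which brings procaspase-8 and procaspase-10 together so that they activate each other. FLIP, the product of CFLAR, resembles these caspases and enters the same complex, where its isoforms limit or shape caspase activation. TRAIL kills many tumour cells and spares most normal cells, and gastric cancer lines differ in their sensitivity to it. An array reports transcript levels only, so receptor protein at the cell surface and caspase cleavage were not measured. In a bulk extract, fewer cells expressing a gene and less RNA per cell cannot be told apart.

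The signal is the MAS5 intensity in arbitrary units, which compares the arrays for 1 probe set and does not rank genes. LGALS3, which encodes galectin-3, gave 20206 in control and 2699.8 in silenced cells, 7.48-fold lower. A floor marks signals that cannot be told from background. It is the 95th percentile of 135 olfactory receptor probe sets on each array, 138.4 in control and 109.5 in silenced cells. The log2 ratio is silenced minus control, and a log2 ratio of 1 is 2-fold. Silenced cells had a signal at least 2-fold higher for 3.31% of the 10514 genes measured and at least 2-fold lower for 3.07%. The median log2 ratio was -0.02. Rescaling the arrays so that their spiked-in hybridization controls match moved it to 0.17, and matching the spiked-in poly-A controls, called poly-A scaling here, moved it to -0.25. The 348 higher and 323 lower genes became 576 and 183 with the first of these and 186 and 633 with the second. A small ratio therefore has a direction only relative to the other genes.

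All 8 epithelial markers were above the floor on at least 1 array, among them EPCAM with 18866.5 and 19383. Their summed signal was 95084.9 in control and 114124 in silenced cells. Of 10 leukocyte markers 9 had a probe set, and all 9 were under the floor on both arrays, with summed signals of 185 and 202.5. Fibroblast markers were above the floor on at least 1 array for 2 of 7 genes and endothelial markers for 1 of 5, with summed signals of 1128.3 and 1767 for the former and 240.3 and 169.3 for the latter. COL1A1 gave 816.3 and 1502 of the fibroblast sums, with log2 ratios from -0.55 to 0.88 between its 3 probe sets, while COL1A2, DCN, LUM and PDGFRB were under the floor. Its part in the ratios given next was not tested.

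All 9 genes were measured, 8 above the floor on both arrays and TNFSF10 on the silenced array only. None of the 8 was at least 2-fold higher or lower by the probe set that stands for the gene, the one with the highest mean log2 signal that is not of the cross-hybridising _x_at kind where another exists. For TNFSF10 only a lower bound could be given, which leaves unknown whether it passes 2-fold. Among the 8 genes above the floor on both arrays 6 were higher and 2 lower, where 48.9% of all such genes were higher, and TNFRSF10A, TNFRSF21 and CFLAR were the 3 highest. The median log2 ratio of the 9 genes was 0.13, against -0.02 for all measured genes, and it was 0.31 against -0.03 when each gene took the median of its probe sets. Under poly-A scaling the medians were -0.10 and -0.25. TNFRSF10B, TNFRSF10D and FAS then turned to lower by the probe set that stands for each. Relative to the median of all genes TNFSF10 and the 6 genes that were higher lay above it in each setting that gave them a value. Much of this was fixed in advance. Matching the controls shifts every ratio by one amount, so it cannot change a distance to the median. Settings of the floor leave the ratio of a gene far above it as it was.

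Single probe sets also leaned higher under the deposited scaling, with a larger median ratio than the genes. Of the 35 probe sets 27 were above the floor on both arrays, 2 on the silenced array only and 6 on neither. Of the 27, 24 were higher on the silenced array and 3 lower, where 47.9% of all such probe sets were higher. Their median log2 ratio was 0.39, against -0.02 over all probe sets exceeding the floor on both arrays. Poly-A scaling left 20 of 27 higher, with a median of 0.15 against -0.26 over all such probe sets. The share of all probe sets higher under it was not computed. Above the median of all probe sets were 24 under either scaling, a count that a shift by one amount cannot change. The 27 are not independent, because 11 of them report CFLAR alone. Of the 6 genes with 2 or more such probe sets, 5 had all of them higher, and the exception was CFLAR with 10 of 11. Across the array 29.7% of genes with 2 or more such probe sets had all of them higher. Under poly-A scaling 2 of the 6 genes had all of them higher, where 14.1% of all such genes did. Relative to the median of all probe sets 5 had all of them above it, a count whose share over all genes was not computed. The log2 ratios of probe sets of one gene differ with a pooled SD of 0.32 over 4728 genes, and 5 of the 8 gene ratios lie within 1 such SD of 0. TNFRSF10A, TNFRSF21 and TNFRSF1A lie beyond it under the deposited scaling. Under poly-A scaling TNFRSF1A alone lay beyond it. With the hybridization controls matched TNFRSF1A lay within it, and TNFRSF10B and CFLAR joined TNFRSF10A and TNFRSF21 beyond it. That SD compares probe sets on the same 2 arrays, so it does not measure variation between arrays or cultures. The share of all genes within it was not computed.

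**Figure D1:**
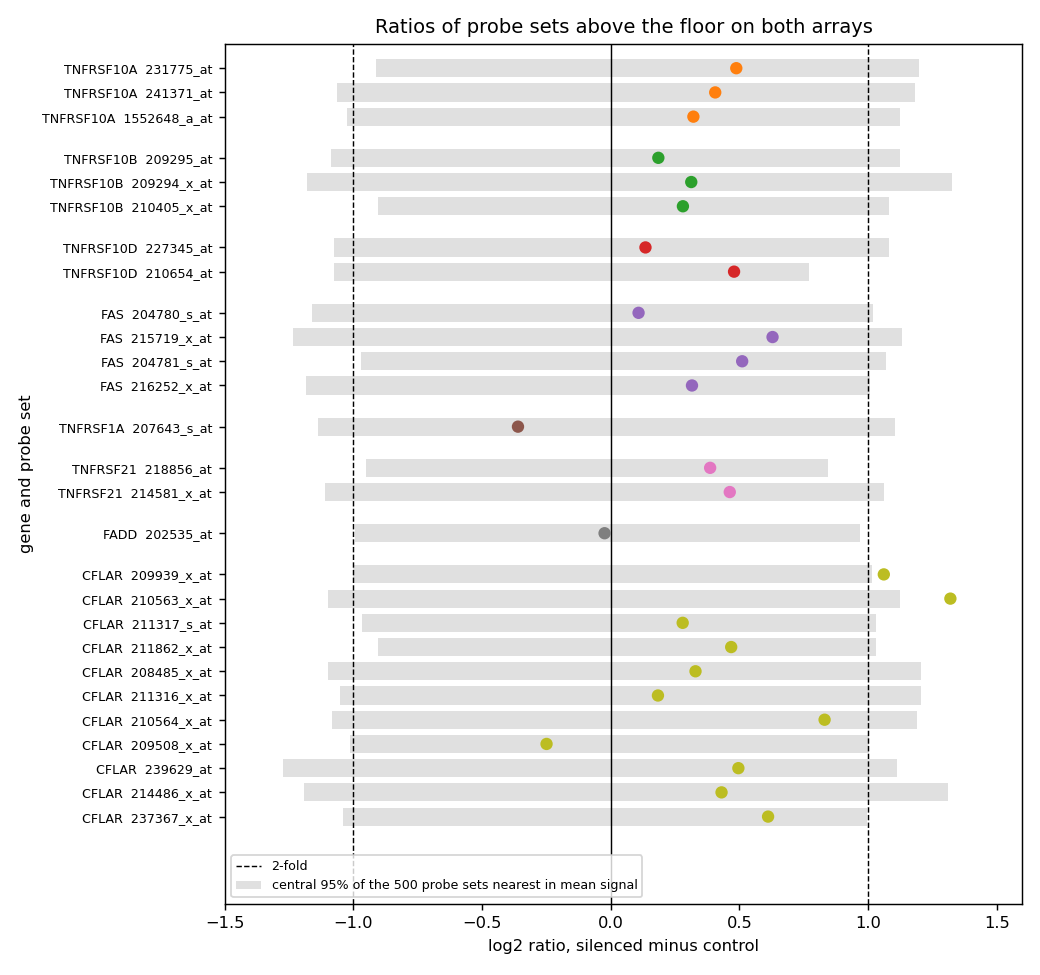
Log2 ratio (silenced minus control, horizontal axis) of each of the 27 probe sets exceeding the floor on both arrays, grouped by gene. Grey bars span the central 95% of the 500 probe sets nearest in mean signal and dashed lines mark 2-fold; 2 CFLAR probe sets lie beyond both under the deposited scaling, and the only points left of 0 are TNFRSF1A, FADD and 1 CFLAR probe set.

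TNFSF10, the only ligand among the 9, was under the floor in control cells by all 3 of its probe sets. It encodes TRAIL, which binds the products of TNFRSF10A, TNFRSF10B and TNFRSF10D and is a known interferon-inducible gene. Probe set 202688_at gave 29.5 in control and 149.7 in silenced cells, and 202687_s_at gave 3.7 and 132.9. Both control signals were under the floor of 138.4 and both silenced signals were above the floor of 109.5. The remaining probe set, 214329_x_at, gave 40.9 on the silenced array and 23.3 on the control array, both under the floor. TNFSF10 was therefore at least 1.08-fold higher by 202688_at, and the signals of 202687_s_at set no direction because the control floor is above its silenced signal. The raw ratio of 202688_at was 5.07-fold, which rests on a control signal that cannot be told from background. The bound had no direction under poly-A scaling, where its log2 value was -0.12. It was 0.77 with a floor from olfactory receptor genes without pseudogenes and 1.10 with each array's median signal as the floor. TRAIL transcript was thus near the floor even on the silenced array, and how far it differed is set by where the floor is put.

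The RefSeq promoter window of TNFSF10 is shown because the gene is known to respond to interferon. RefSeq on GRCh38.p14 places this window at chr3:172523381-172523680 on the minus strand, from 250 bases before to 50 bases after the annotated start. It is printed in the direction of the gene, with matches to the core of the interferon-stimulated response element in capitals.
TNFSF10 promoter: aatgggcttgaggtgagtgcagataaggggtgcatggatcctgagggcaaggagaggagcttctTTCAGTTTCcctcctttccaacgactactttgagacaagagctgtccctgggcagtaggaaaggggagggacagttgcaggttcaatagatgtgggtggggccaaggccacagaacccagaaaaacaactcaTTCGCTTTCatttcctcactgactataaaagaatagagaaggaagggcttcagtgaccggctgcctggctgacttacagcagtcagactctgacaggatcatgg
The core was searched as GAAANNGAA on both strands. TNFSF10 holds it at 186 and 54 bases before the start, as TTCAGTTTC and TTCGCTTTC, which read as the core on the strand opposite to the gene. Of all 35116 promoter windows of this length 8.11% hold the core. A match describes letters only and no factor's binding was measured.

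TRAIL receptors that carry a death domain were slightly higher in silenced cells under the deposited scaling. Under poly-A scaling the probe set that stands for TNFRSF10A stayed higher and that of TNFRSF10B did not. TNFRSF10A encodes DR4. Its probe set 231775_at gave 663.8 in control and 930.9 in silenced cells, 1.40-fold higher. The others, 241371_at and 1552648_a_at, gave 568.6 and 488.9 in control and 753.4 and 610.8 in silenced cells. These 3 log2 ratios of 0.49, 0.41 and 0.32 had an SD of 0.08, and TNFRSF10A stayed higher under every scaling, with 0.25 as its lowest value. Of genes above the floor on both arrays 86.1% had a lower ratio than TNFRSF10A.

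TNFRSF10B encodes DR5, the other TRAIL receptor with a death domain and a known target of p53 and of the ER stress factor CHOP. Probe set 209295_at gave 2967.8 in control and 3373.8 in silenced cells, 1.14-fold higher. The cross-hybridising probe sets 209294_x_at and 210405_x_at gave 769.6 and 731.2 in control against 956 and 888.1 in silenced cells. Their log2 ratios were 0.31 and 0.28, beside 0.18 for 209295_at, with an SD of 0.07 between the 3. The last probe set, 1556645_s_at, was under the floor with 98.4 and 89.1. Under poly-A scaling TNFRSF10B turned to -0.05 by 209295_at. It stayed 0.20 above the median of all genes, a distance that this scaling cannot change. The ratios of both _x_at probe sets exceed the 0.23 that this scaling takes from each, so they stayed above 0.

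TNFRSF10D encodes the decoy receptor DcR2, which binds TRAIL with a truncated death domain that does not pass on a death signal. Its probe set 227345_at gave 582.4 in control and 639.5 in silenced cells, a log2 ratio of 0.13. The weaker 210654_at gave 156.6 and 218.3, a log2 ratio of 0.48, with a control signal close to the floor. The first ratio turned to -0.10 under poly-A scaling. Thus the decoy and the receptors that signal had ratios above 0 under the deposited scaling, each less than 2-fold. TNFRSF10C, the other TRAIL decoy receptor, was under the floor with 13 and 13.4. In RefSeq's gene order TNFRSF10B, TNFRSF10C, TNFRSF10D and TNFRSF10A are consecutive genes.

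FAS encodes the receptor of FAS ligand and is a known p53 target. By 204780_s_at it gave 696.6 in control and 750.8 in silenced cells, a log2 ratio of 0.11. The other 3 probe sets above the floor had larger ratios. Probe set 215719_x_at gave 300.6 and 464.8, 204781_s_at gave 292.6 and 416.9, and 216252_x_at gave 227.7 and 283.4, with log2 ratios of 0.63, 0.51 and 0.32. Probe set 233820_at was under the floor with 35.2 and 29. The SD between the 4 ratios was 0.23, and the probe set that stands for the gene has the smallest of them. FAS took the value 0.41 as the median of its probe sets, and by 204780_s_at it turned to -0.13 under poly-A scaling. The other 3 ratios exceed the 0.23 that this scaling takes from each, so they stayed above 0.

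TNFRSF1A was the 1 receptor of the set with a lower signal. It encodes TNFR1, the TNF receptor that forms a survival complex first and a death complex only when survival signalling fails. Its only probe set, 207643_s_at, gave 1402.9 in control and 1092.7 in silenced cells, 1.28-fold lower. The log2 ratio was -0.36, and it ran from -0.59 to -0.18 over the 12 other settings that gave a value. Only the scalings and the offset could move it. Its single probe set lies far above the floor, so settings of the floor or of the probe set leave it as it was. It was below the median of all genes in each, a distance that matching the controls cannot change. Of genes above the floor on both arrays 20.5% had a lower ratio.

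TNFRSF21 encodes DR6, a death receptor whose ligand is less settled and which is studied mostly in neurons. Its 218856_at gave 6349 in control and 8298.2 in silenced cells, 1.31-fold higher. The cross-hybridising 214581_x_at gave 2636.4 and 3632.8. The log2 ratios of 0.39 and 0.46 were both positive under every scaling, with 0.15 as the lowest value of 218856_at. Of genes above the floor on both arrays 81.4% had a lower ratio.

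FADD, the adaptor through which FAS and the TRAIL receptors recruit caspases, gave nearly equal signals. By its single probe set 202535_at it had 1991.7 in control and 1958.8 in silenced cells. Its log2 ratio of -0.02 turned to 0.16 when the hybridization controls are matched, and it lay 0.01 below the median of all genes under the deposited scaling. Of genes above the floor on both arrays 48.8% had a lower ratio, so FADD sat in the middle of the array.

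CFLAR, the gene of FLIP, had the largest ratios among the 27 probe sets that exceeded the floor on both arrays. By the probe set that stands for the gene it was below TNFRSF10A and TNFRSF21. The SD between its 11 ratios was 0.43, above that of the other 5 genes with 2 or more such probe sets. Probe set 209939_x_at gave 3093.8 in control and 6455.8 in silenced cells, 2.09-fold higher. Probe set 210563_x_at gave 2127.9 and 5312.4, 2.50-fold higher. Of all probe sets exceeding the floor on both arrays 3% were at least 2-fold higher. The log2 ratios of 1.06 and 1.32 lay just above the central 95% of the 500 probe sets nearest in mean signal, whose upper ends were 1.02 and 1.12. Under poly-A scaling they were 0.83 and 1.09, so that 209939_x_at was no longer at 2-fold.

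The other 9 CFLAR probe sets exceeding the floor on both arrays had weaker signals and smaller ratios. Of these, 211317_s_at, which stands for the gene, gave 526.6 in control and 639.2 in silenced cells, a log2 ratio of 0.28. The highest of the 9 was 0.83 for 210564_x_at, with 350.7 and 623.9. The lowest was -0.25 for 209508_x_at, with 450.2 and 378.7, the only CFLAR probe set above the floor that was lower. The remaining 6 ranged from 0.18 for 211316_x_at to 0.61 for 237367_x_at, and the median of the 9 was 0.43. Probe sets 214618_at, 217654_at and 235427_at were under the floor on both arrays. The full range of the 11 log2 ratios was 1.57. A range grows with the number of probe sets, and no other gene of the set has as many. The pair with the highest ratios also had the highest CFLAR signals, and both are of the _x_at kind, whose oligonucleotides can bind more than 1 transcript. That kind does not set the pair apart. The lowest and the highest of the 9, 209508_x_at with -0.25 and 210564_x_at with 0.83, are of it too, as are 211316_x_at and 237367_x_at. Which transcript variants each probe set reports was not tested. The call for CFLAR therefore turns on the choice of probe set, with a log2 ratio of 0.28 when _x_at probe sets are left out and 1.06 when they are kept. The value of 1.06 is that of 209939_x_at alone, which then stands for the gene, and does not describe _x_at probe sets in general. Without _s_at and _x_at probe sets the ratio was 0.50, and as the median of its probe sets it was 0.47.

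CFLAR has 4 RefSeq promoter windows, of which 2 hold a match to a searched motif. The first is shown because CFLAR is a known target of NF-kB. It lies at chr2:201118466-201118765 on the plus strand of GRCh38.p14, and the capitals mark a match to the kB consensus 97 bases before the start.
CFLAR promoter: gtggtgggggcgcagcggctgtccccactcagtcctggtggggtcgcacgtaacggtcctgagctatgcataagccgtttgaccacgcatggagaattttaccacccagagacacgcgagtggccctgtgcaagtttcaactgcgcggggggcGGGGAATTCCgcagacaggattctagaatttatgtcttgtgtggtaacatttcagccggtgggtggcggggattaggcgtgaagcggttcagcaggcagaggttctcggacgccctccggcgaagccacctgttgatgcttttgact
The kB consensus, GGGGAATTCC here, is found in 11.3% of all windows. The third CFLAR window holds the interferon-stimulated response element core, as TTCTATTTC 111 bases before that start. In the second FAS window there was a kB match 157 bases before the start and a p53 half-site 122 bases before it, the latter found in 6.63% of all windows. Windows were given for 6 of the 9 genes, 11 in all, and none held the gamma-activated site TTCNNNGAA, which 7.66% of all windows hold. The core of the interferon-stimulated response element was in 2 of the 11.

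**Figure D2:**
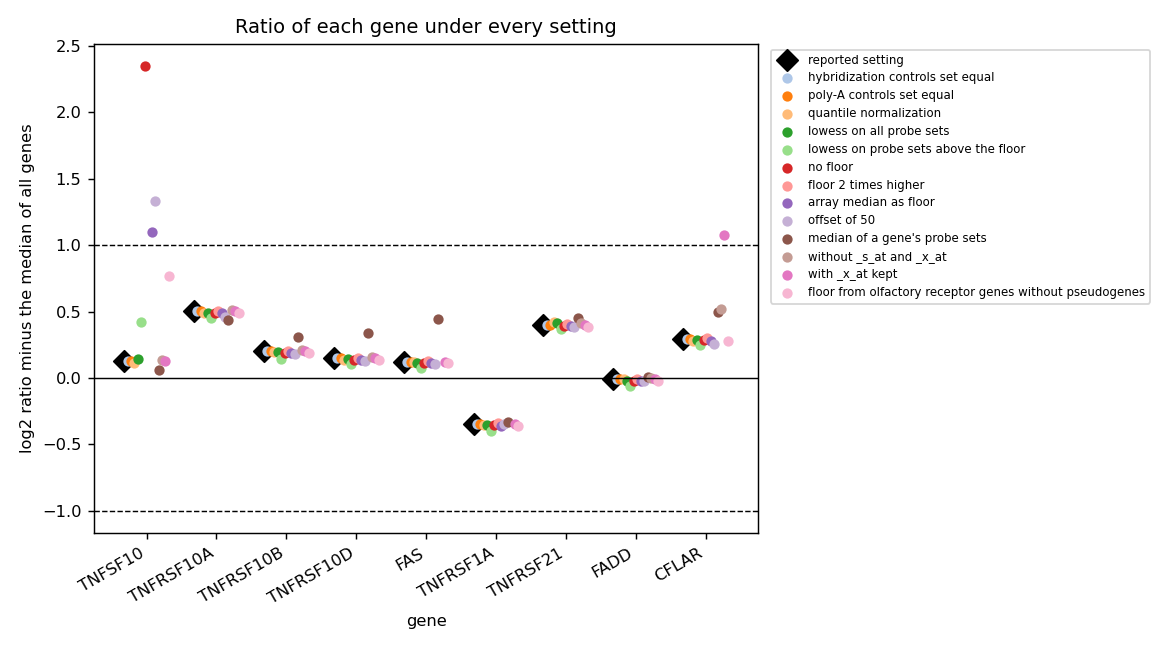
Log2 ratio of each gene minus the median of all genes (vertical axis) under the reported setting (diamonds) and each other scaling, floor, offset or choice of probe set (points); dashed lines mark 2-fold. Points lie close together for TNFRSF10A, TNFRSF1A, TNFRSF21 and FADD, TNFSF10 runs from 0.06 to 2.35, and CFLAR reaches 1.08 when _x_at probe sets are kept. FADD is above 0 in 2 of the 13 other settings. Closeness is partly fixed in advance, because matching the controls cannot move a point. Floor settings leave the ratio of a gene far above the floor as it was.

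Genes on either side of the set in the pathway were described from lists. Among the 17 other TNF superfamily ligands 12 were under the floor on both arrays, including TNF with 65.3 and 53.8 and FASLG, the FAS ligand, with 39.7 and 42. TNF, the ligand of TNFRSF1A, and the FAS ligand were thus not above background on either array. Of 3 ligands measured, 2 were at least 2-fold higher and 1 had no direction. TNFSF13, also called APRIL, gave 141.6 and 344.8, 2.44-fold higher on a single _x_at probe set. Its control signal is close to the floor of 138.4. TNFSF15, also called TL1A, gave 633.6 and 1279.2, 2.02-fold higher. Of these 1 stayed at 2-fold under poly-A scaling.

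Of the 22 other TNF receptor superfamily genes 12 were under the floor on both arrays. Among the 10 measured, bounds included, 5 were higher and 5 lower, none at least 2-fold, with a median log2 ratio of 0.02 that turned to -0.22 under poly-A scaling. TNFRSF19, also called TROY, had the largest ratio, with 2436.4 in control and 4472 in silenced cells, a log2 ratio of 0.88. Its 3 probe sets reached 1.18, and it passed 2-fold when the hybridization controls are matched. TNFRSF13B, with 169.8 and 70.9, was at least 1.55-fold lower.

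Inside the cell, 22 of 30 genes of death receptor signalling were measured, 15 higher and 7 lower, with a median log2 ratio of 0.07 that turned to -0.16 under poly-A scaling. The 2 at least 2-fold higher both encode deubiquitinases that restrain NF-kB and shape TNF receptor complexes. CYLD gave 188 and 510.9, 2.72-fold higher by the only one of its 7 probe sets exceeding the floor on both arrays. TNFAIP3, also called A20, gave 339.7 and 813, 2.39-fold higher, and its 2 probe sets had log2 ratios of 1.26 and 1.25. Both stayed at 2-fold or more under poly-A scaling. None of the 22 was at least 2-fold lower.

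Initiator caspases were read because they share the death receptor complex with FADD and FLIP, and were picked after their values were seen. CASP8 gave 2133.5 in control and 3590.7 in silenced cells, a log2 ratio of 0.75, with 0.22 by its other probe set above the floor. CASP10 gave 200.6 and 294.8, a log2 ratio of 0.56, with 0.15 by its other probe set. Poly-A scaling takes 0.23 from each, so the smaller ratio of both genes turned to below 0 and the larger stayed above it. In RefSeq's gene order CFLAR, CASP10 and CASP8 are consecutive. Downstream, DIABLO, which relieves caspases of their inhibitors, gave 5044.9 and 9600.3, 1.90-fold higher, and passed 2-fold when the hybridization controls are matched. XIAP, the inhibitor it binds, had a log2 ratio of 0.02, which has no settled direction.

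Genes that respond to the signals known to act on death receptor genes differed from list to list. Interferon-stimulated genes had the highest median of the 7 lists, with 22 of 22 measured genes higher, 18 of them at least 2-fold, and a median log2 ratio of 1.45. Poly-A scaling left 16 at least 2-fold higher. OAS1 gave 1644.8 and 8564.4, 5.21-fold higher, and IFIT2 gave 746.3 and 3146, 4.22-fold higher. GBP1 and XAF1, under the floor on the control array, were at least 3.80-fold and 3.76-fold higher. The response element core is in 17 of the 28 promoter windows given for 21 of these genes, against 8.11% of all windows. It is in 2 of the 11 windows given for 6 of the death receptor genes, 1 of 1 for TNFSF10 and 1 of 4 for CFLAR. No window of FAS, FADD, TNFRSF1A or TNFRSF21 holds it. Whether the death receptor genes follow interferon in these cells was not tested.

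NF-kB feedback and target genes had a median log2 ratio of 0.32 over 12 measured, with 9 higher and 3 lower. TNFAIP3 alone was past 2-fold, and under poly-A scaling 1 gene, TNFAIP2, was at least 2-fold lower as well. The p53 target genes had a median of 0.12 that turned to -0.12 under poly-A scaling, with 11 of 18 measured higher and 7 lower. GDF15 is not among the 18, because the probe set that stands for it was under the floor with 50.7 and 35.6. Of its 3 probe sets 1 was above the floor on both arrays, with a log2 ratio of 1.26. PMAIP1, which encodes the BH3-only protein NOXA, gave 517.8 and 1802.1, 3.48-fold higher. TP53I3 gave 2646.9 and 8294.3, 3.13-fold higher, and POLH was 2.28-fold lower by a probe set whose counterparts ranged up to -0.13. The ER stress genes had a median of 0.03 over 11 measured, which turned to -0.20 under poly-A scaling, and none was past 2-fold under the deposited scaling. The largest ratios there were -0.86 for SDF2L1 and 0.75 for ATF3, and DDIT3, which encodes CHOP, had -0.06, too small for a settled direction.

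**Figure D3:**
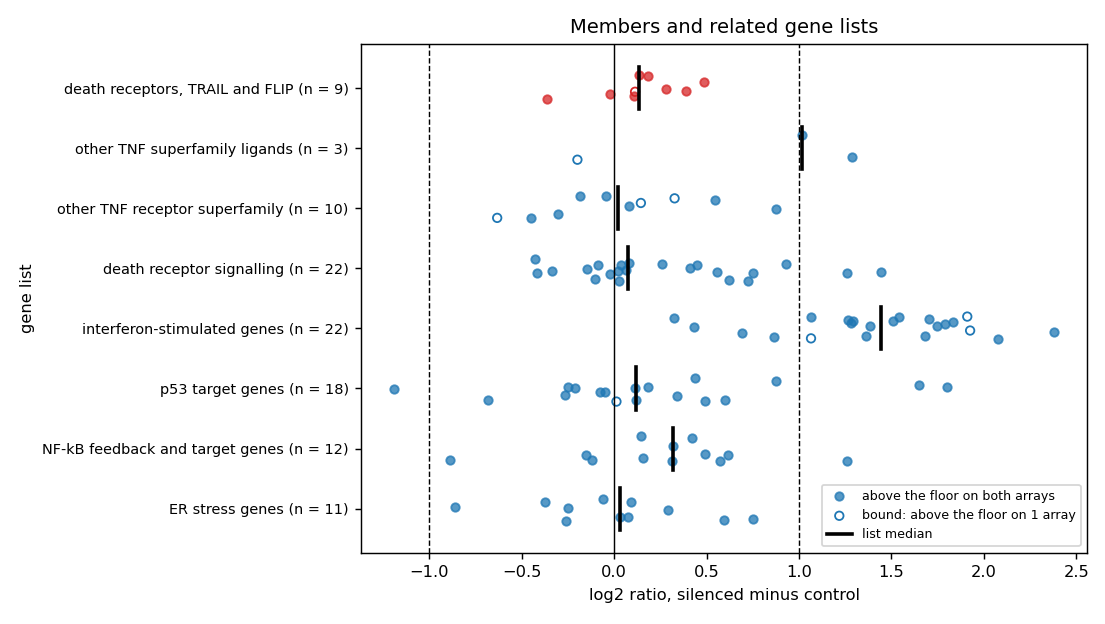
Log2 ratio (silenced minus control, horizontal axis) of each measured gene of the 9 (top row) and of 7 related lists, with filled points above the floor on both arrays, open points above it on 1 array (a bound) and a bar at each median; dashed lines mark 2-fold. The 8 genes above the floor on both arrays lie within 2-fold, TNFSF10 is drawn at its bound, and the median of the 9 is 0.13 and turned to -0.10 under poly-A scaling, while 18 of the 22 interferon-stimulated genes lie at or beyond 2-fold.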

How the data were processed

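RNA of AGS cells was hybridised as biotin-labelled cRNA to 2 one-colour Affymetrix arrays, 1 per group, grouped by title. The deposited values are linear intensity values from MAS5, which the authors ran, per the submitters' processing notes. The values show a 2% trimmed mean of 500.07 on each array. MAS5 treats arrays singly, which leaves weak signals noisy, and a common mean conceals a shift in RNA content. The sources used here state neither its version nor its target.

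Probe sets were named from the platform annotation, which lists 42898 of 54675, 41097 of them with 1 symbol and 1801 with several; the latter name no gene. By gene identifier 41043 matched RefSeq GRCh38.p14, and 0 symbols were updated. Signals under the floor were raised to it. A gene above the floor on 1 array has a bound, and one under it on both has no ratio; 9579 genes were above it on both. Precision is limited by the number of arrays.

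The rule of size is 2-fold. Genes named are the 9, LGALS3 and, in each list, up to 4 past 2-fold with the largest ratios or else the 2 largest; other genes were picked with their values known. The 9 genes and the lists were chosen with earlier results of these data known, so no count here is independent support. The spread between probe sets of one gene, the probe sets of like signal, the count of genes with all probe sets higher and the floor without pseudogenes were added after seeing the data. Scaling, floor, offset, choice of probe set and rule of size were varied. Promoter windows are RefSeq's. Calculations used Python 3.11.15 with numpy 2.4.6, pandas 2.3.3 and statsmodels 0.14.6, and were tested on simulated data.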

Additional observations from a re-analysis of the deposited data

How the results depend on the processing

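No paired analysis was possible because each group has 1 array, and for the same reason no array could be left out. Over all genes, 348 were at least 2-fold higher and 323 lower. The counts were 576 and 183 with the hybridization controls set equal, 186 and 633 with the poly-A controls set equal, 2466 and 2459 with no floor, and 1117 and 1091 under a 1.5-fold rule. Setting the controls equal shifts every ratio by one amount, and no floor adds genes of low signal. Of the 9 genes, 1 was at least 2-fold higher with no floor, with each array's median as the floor and with an offset of 50, TNFSF10 each time. With _x_at probe sets kept it was 1 as well, CFLAR. None was 2-fold lower in any setting. TNFSF10 took a log2 ratio of 2.34 with no floor, 1.33 with the offset, 0.45 with lowess on probe sets above the floor, and none with a floor 2 times higher. The median of the 9 genes was 0.31 when each gene took the median of its probe sets and 0.32 with the hybridization controls set equal. FAS and TNFRSF1A had no value without _s_at and _x_at probe sets. Low signal limits TNFSF10, and the single array per group limits every value.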
